A study of Mus musculus with 32 samples.

Results

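Ribosome-associated RNA of somatostatin (SST) neurons was compared with that of Grik neurons, both from the mouse hippocampus. The comparison used 8 of the 32 libraries of the series: SST replicates 1, 2, 3 and 5 and Grik replicates 3, 4, 5 and 6, chosen by their titles and their hippocampus tissue label. All 8 are labelled wild type, and the sources used here give no strain, age, sex or treatment. The other 24 libraries are cortical CamK, Scnn, PV, SST and VIP and hippocampal CamK populations, with 4 libraries each.

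From knowledge of the study, and not from the labels, each population is defined by a Cre driver line that switches on a tagged ribosomal protein, so that ribosomes and their bound mRNA can be pulled out of the chosen cells. The labels name neither the driver alleles nor the tag, and they do not say whether replicates are separate animals. The p-values below therefore rest on the spread between libraries, which may be technical. For edgeR this spread was estimated within the groups of all 32 libraries, not of the 8 compared alone. RNA from neighbouring cells that is carried along in such a pull-down could not be measured, for the reason given next.

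Somatostatin neurons of the hippocampus are GABAergic, that is inhibitory, interneurons. They include the oriens-lacunosum moleculare cells, which control the input that pyramidal cells receive on their distal dendrites. The Grik driver is known for labelling pyramidal cells of area CA3, which release glutamate, excite one another through recurrent collaterals and receive the mossy fibres of the dentate gyrus. The contrast thus sets an inhibitory interneuron class against an excitatory principal cell type of the same tissue. Neither identity could be checked on marker genes. The deposited table names its features only by codes beginning with GSMG. No file translates these codes into gene names, and 0 were found in the reference gene tables. Features are therefore described by number, level and identifier, and no gene is named.

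The depth of 7 of the 8 libraries was alike, with deposited counts of 107541048 to 110859184 in Grik and 109141183 to 114153919 in 3 of the SST libraries. SST replicate 1 was deeper, at 186505391 counts. Spearman correlations across the 24555 features tested were 0.978 to 0.983 among the SST libraries and also 0.978 to 0.983 among the Grik libraries, against 0.933 to 0.939 between a library of one and a library of the other. No library of either population lay nearer to the opposite population. Within a population most features were steady. Where the group mean reached 5 CPM (a feature's counts relative to the library's total, scaled by the TMM factors of edgeR), the median SD over the 4 libraries was 0.128 on the log2 scale in SST and 0.129 in Grik. A range of at least 2-fold over the 4 libraries occurred in 253 of 10715 such features in SST (2.36%) and in 106 of 10582 in Grik (1%). In SST these were not the mark of 1 library, since each of the 4 had between 59 and 85 features at least 2-fold away from the median of the other 3. In Grik the corresponding numbers were 7 to 12 in replicates 3, 4 and 5 and 35 in replicate 6.

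SST and Grik neurons differed in 5960 of the 24555 features tested, or 24.3%. Of these, 3411 were higher in SST (13.9% of those tested) and 2549 were lower in SST (10.4%). A feature was called at an edgeR quasi-likelihood adjusted p under 0.05 and a difference of at least 2-fold. In libraries made from many cells, more cells of a type that carry a transcript and more of it per cell cannot be told apart. Higher features made up 57.2% of the calls. Without the fold threshold, 5857 features were higher and 5758 lower, a share of 50.4%, so the excess appeared only with the threshold. TMM scaling sets the bulk of the features level, which favours an even split. Without the threshold, the other comparisons described below also had 49.3% to 52.7% higher. Libraries of both populations did not overlap for 2938 of the 3411 higher features (86.1%) and 2389 of the 2549 lower features (93.7%). Over all features tested, the same separation held for 22.1% on the higher and 22.2% on the lower side. Scaling by total counts, without the TMM factor, moved the median log2 difference of all features from 0.07 to 0.23 and the share of higher calls to 65.2%. Directions below are relative to the TMM scaling.

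**Figure D1:**
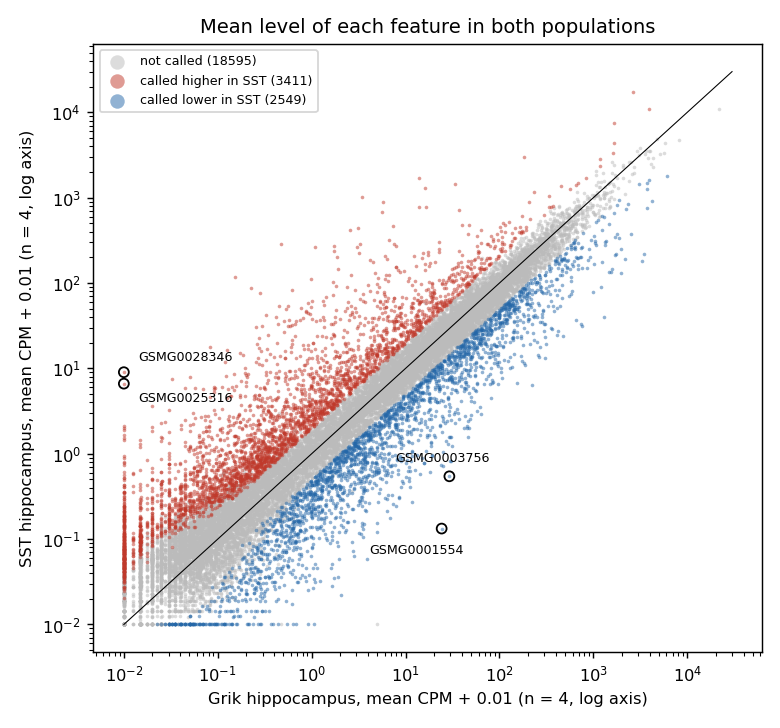
Mean CPM of each feature tested in Grik (x axis) and in SST hippocampus (y axis), with 0.01 added for the log axes. Points are features, coloured by call, the line marks equal levels and circles mark the 4 features described by identifier. The 3411 higher and 2549 lower features lie on either side of the line, and GSMG0028346 and GSMG0025316 stand at the left edge, where the Grik mean is 0.

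The differences were large more often on the SST side. The median log2 difference was 2.22 among the higher features and -1.89 among the lower ones. At least 8-fold differences were found in 1176 higher features (34.5% of them) and in 586 lower features (23%). The 16-fold mark was passed by 737 higher and 276 lower features. Part of this rests on features with 0 counts in all 4 libraries of the other population, which numbered 313 on the higher and 103 on the lower side. For these the counts give only a lower bound on the fold change, and the fitted values counted above are not that bound. With each set to the value that 3 counts over the 4 libraries would give, 510 higher and 203 lower features passed 16-fold, 1035 and 538 passed 8-fold, and the medians were 2.18 and -1.88.

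The balance between both populations turned with the level of the feature. Features called higher in SST were mostly of low level, with a median of 1.53 CPM in SST and 0.311 CPM in Grik. Features called lower in SST were more abundant, with a median of 5.46 CPM in Grik and 1.29 CPM in SST. Among the 10292 features with a mean under 1 CPM over both populations, 1730 were higher and 793 lower in SST, so 68.6% of the calls were on the SST side. That share was 54.2% at 1 to 10 CPM and 46% at 10 to 100 CPM. Among the 2180 features at 100 CPM or more, 140 were higher (6.42%) and 266 lower (12.2%), a share of 34.5%. The larger share of high-level features was thus on the Grik side.

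**Figure D2:**
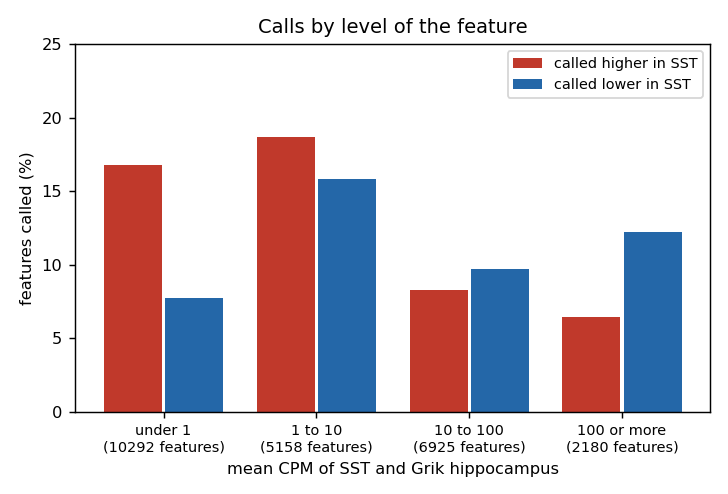
Percent of features called higher (red) or lower (blue) in SST, in 4 classes of mean CPM over SST and Grik hippocampus, with the number of features tested under each class. The red bars exceed the blue ones below 10 CPM, and the order is reversed from 10 CPM upwards, with 6.42% against 12.2% in the highest class.

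The most abundant transcripts were partly shared. Of the 100 most abundant features of each population, 64 were the same. Of the SST list, 19 were called higher and 5 lower in SST. Of the Grik list, 34 were called lower and 5 higher in SST. Each list was picked by level in 1 of the populations, which in itself favours calls on that side. Over all features at 100 CPM or more, 6.42% were higher and 12.2% lower. The lists reached down to 976 CPM in SST and 1240 CPM in Grik. The 100 most abundant features of a library took 23.1% ± 1.06 of its counts in SST and 23.3% ± 0.574 in Grik (SD, n = 4 each; exact permutation test, two-sided, p = 0.83, also after adjustment over 3 measures). Between 14080 and 14194 features reached 1 CPM in the 4 SST libraries, and between 13785 and 13870 did so in the 4 Grik libraries. These ranges did not overlap, by a mean of 294.2 features (two-sided p = 0.0286 by exact permutation, which 4 against 4 libraries cannot go below, adjusted p = 0.0858 over 3 measures). The difference did not pass after adjustment, which this design cannot reach for 1 measure alone. Total counts were higher in SST by a mean of 20700000, with an SD of 37800000 in SST and 1800000 in Grik (n = 4 each). This difference did not pass either (exact permutation p = 0.171, adjusted p = 0.256), and it was 1818000 without SST replicate 1.

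Called features held a limited part of the RNA. The higher set took 14.5% ± 1.73 of the counts in SST and 3.4% ± 0.0612 in Grik (SD, n = 4 each). The lower set took 6.06% ± 0.151 in SST and 19.4% ± 0.189 in Grik. These shares are given without a test, since the same libraries chose the sets.

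GSMG0028346 and GSMG0025316 had the largest fitted differences on the SST side, out of 1132 higher features that averaged 5 CPM or more in SST and showed no overlap between libraries. GSMG0028346 stood at 8.04, 11.3, 9.02 and 7.73 CPM in SST replicates 1, 2, 3 and 5, and had 0 counts in each of the 4 Grik libraries. It was detected in every SST library and in no Grik library, although SST replicate 5, the lowest, still held 885 counts. A count of 0 allows up to 3 counts over the 4 Grik libraries, or 0.00753 CPM, so its level was at least 1200-fold higher in SST (edgeR adjusted p = 9.35e-16). A floor of this kind covers counting error only. In the other populations it was at 5.17 ± 0.511 CPM in SST cortex and at means of 0.12 to 0.469 CPM in CamK, Scnn, PV and VIP (n = 4 each). Both SST populations thus held the highest levels, the hippocampal one (7.73 to 11.28 CPM) above the cortical one (4.82 to 5.93 CPM) without overlap.

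GSMG0025316 was at 5.6, 8.32, 7.42 and 5.14 CPM in SST replicates 1, 2, 3 and 5, and again at 0 counts in all 4 Grik libraries. Its level was at least 879-fold higher in SST (edgeR adjusted p = 5.43e-15). Unlike the previous feature, it did not follow the SST class into the cortex. SST cortex had 0.457 ± 0.185 CPM, below CamK cortex with 2.52 ± 0.135 CPM and VIP cortex with 2.62 ± 0.425 CPM (n = 4 each). CamK hippocampus, the other excitatory population of the tissue, had 0.927 ± 0.384 CPM, so among the 8 groups only Grik was at 0. SST hippocampus was the highest of the 8 groups, and its libraries (5.14 to 8.32 CPM) did not overlap with those of VIP cortex (2.33 to 3.25 CPM).

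GSMG0001554 and GSMG0003756 had the largest differences on the Grik side, out of 1304 features that met the same conditions. GSMG0001554 was at 27.9, 23.3, 23 and 22.8 CPM in Grik replicates 3, 4, 5 and 6 and at 0.0695, 0.0995, 0.0429 and 0.28 CPM in SST replicates 1, 2, 3 and 5. All Grik libraries were above all SST libraries, and SST replicate 5 was the highest of its group. The log2 difference, SST minus Grik, was -7.65 (SE 0.42, edgeR adjusted p = 1.57e-16), and -8.39 without SST replicate 5. The other 6 groups had means of 0.0678 CPM (PV cortex) to 0.363 CPM (CamK cortex), and CamK hippocampus had 0.153 ± 0.0386 CPM. The mean of SST hippocampus, 0.123 CPM, lay within this range.

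GSMG0003756 was at 26.9, 26.1, 30.7 and 33.5 CPM in Grik replicates 3, 4, 5 and 6 and at 0.593, 0.633, 0.369 and 0.542 CPM in SST replicates 1, 2, 3 and 5. Its log2 difference was -5.77 (SE 0.32, edgeR adjusted p = 2.72e-16). This feature was graded over the populations. CamK hippocampus had 5.28 ± 1.21 CPM, VIP cortex 2.24 ± 0.546 CPM and CamK cortex 0.484 ± 0.152 CPM, close to the 0.534 ± 0.116 CPM of SST hippocampus. Scnn cortex had 0.171 ± 0.0611 CPM and PV cortex 0.0601 ± 0.0505 CPM. SST cortex was lowest, at 0.0255 ± 0.00913 CPM (n = 4 each), within the range of PV (0 to 0.1 CPM), so the hippocampal SST libraries (0.37 to 0.63 CPM) were above the cortical ones (0.02 to 0.04 CPM).

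**Figure D3:**
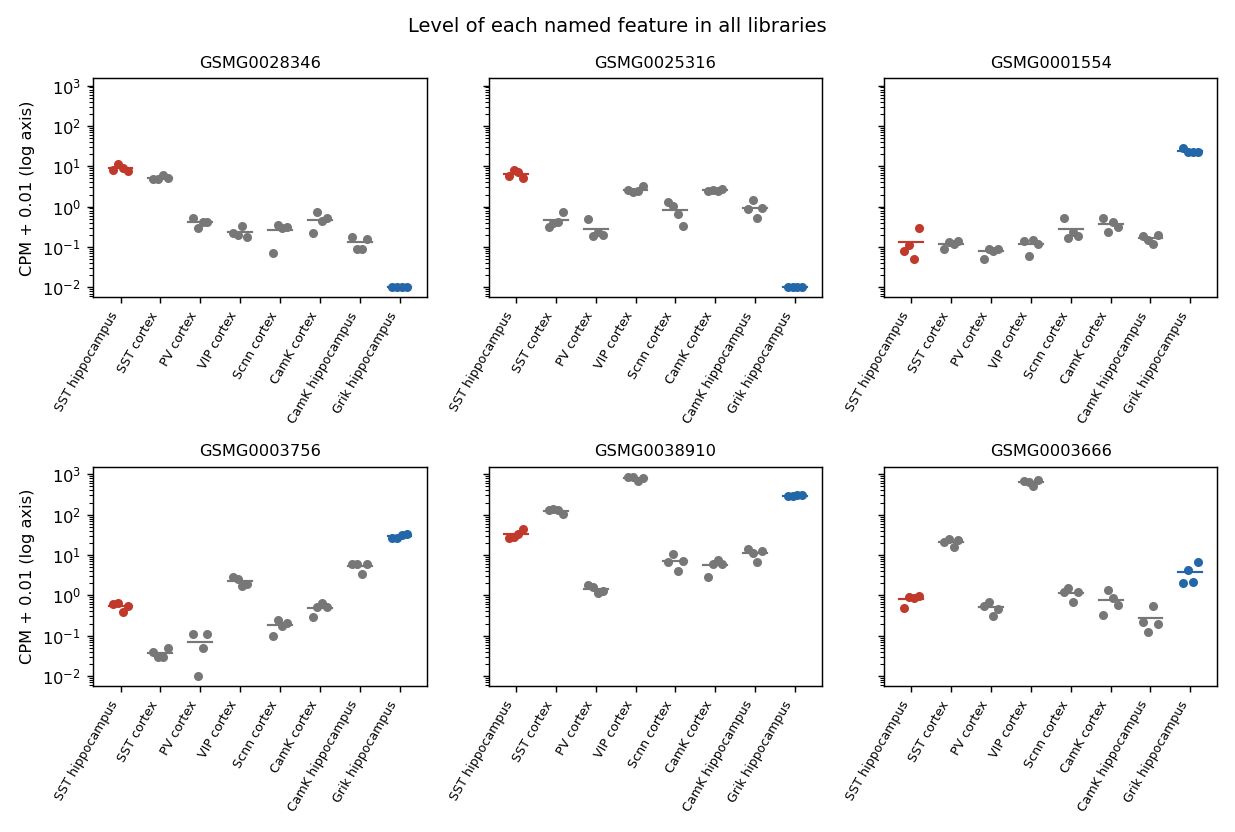
CPM with 0.01 added (log axis) of the 6 features described by identifier, in each library (points) of the 8 groups, with the group mean as a bar. SST hippocampus is red and Grik hippocampus blue. GSMG0028346 and GSMG0025316 lie at the floor in all 4 Grik libraries, and GSMG0001554 stands near 24.2 CPM in Grik alone.

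Presence in one population and near absence in the other was rare. There were 34 features at 1 CPM or more in all 4 SST libraries and under 0.1 CPM in all 4 Grik libraries, or 0.138% of those tested. The reverse pattern was found in 7 features (0.0285%), and in 12 without SST replicate 5. Of the 34 SST features, 7 had 0 counts in all Grik libraries. Their level was low, with a median of 2.05 CPM and a highest mean of 9.02 CPM. In CamK hippocampus 17 of the 34 also stayed under 0.1 CPM in all 4 libraries, and 0 reached 1 CPM in all 4. In the cortex, 18 reached 1 CPM in all 4 SST libraries, 10 in PV, 10 in VIP, 5 in CamK and 3 in Scnn. For the 7 Grik features the median was 1.73 CPM and the highest mean 2.79 CPM. Only 1 of them stayed under 0.1 CPM in all CamK hippocampus libraries. In all 4 libraries of a group, 0 reached 1 CPM in SST or PV cortex, 1 in VIP cortex, 3 in CamK cortex and 3 in Scnn cortex. For neither set was the share of all features tested that pass these limits computed. Single cortical libraries held 13793 to 15483 features at 1 CPM or more, so these counts alone mark no trait of either set.

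The same kind of contrast, interneuron against excitatory population, was available in the cortex without sharing a library with SST or Grik hippocampus. SST cortex differed from CamK cortex in 6011 features (24.5%), 3201 higher (13.0%) and 2810 lower (11.4%). Of the 3411 features higher in SST than in Grik, 1637 were also higher in SST than in CamK cortex, which is 48% of the former list and 51.1% of the latter. Of the 2549 lower features 1327 were lower there too, 52.1% and 47.2% of the lists. Calls in the opposite direction numbered 167 (4.9%) and 156 (6.12%). The remaining 1607 higher and 1066 lower features were not called in the cortex, which does not show that they were equal there. Median cortical log2 differences were 1.26 for the higher set and -1.21 for the lower set, against 0.05 over all features. Across the 24555 features, which are not independent replicates, the fitted differences of both comparisons had a Pearson correlation of 0.5 (Spearman 0.52).

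**Figure D4:**
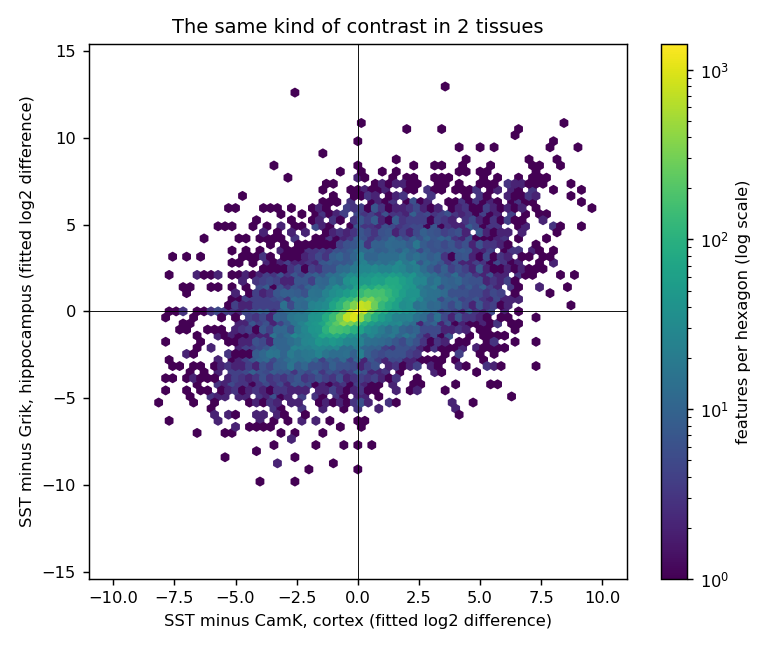
Fitted log2 difference of each feature between SST and CamK cortex (x axis) and between SST and Grik hippocampus (y axis), as hexagons coloured by the number of features on a log scale. The cloud runs from lower left to upper right (Pearson 0.5 over 24555 features), with many features away from the diagonal.

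The shared part was smallest under 1 CPM and rose little between 1 and 100 CPM. The part that low counts play in this was not tested. At a mean under 1 CPM, 41.6% of the higher features (720 of 1730) were also higher in SST cortex than in CamK cortex, where 15.4% of all features of that class were. The share was 54.2% at 1 to 10 CPM and 54.7% at 10 to 100 CPM. At 100 CPM or more it was 56.4% (79 of 140), where 5.32% of the class were. On the lower side the shares of the lowest and the highest class were 47.3% and 60.2%, against 11.7% and 10% of all features. The classes in between had 52.8% and 53.6%. By size, 43.4% of higher features with a 2- to 4-fold difference and 54.1% of those at 16-fold or more were shared. On the lower side these values were 45.3% and 52.5%, with the highest at 4- to 8-fold, 62.3%.

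The set higher in SST also leaned towards the other interneuron populations. PV cortex differed from CamK cortex in 34.6% of features (17.8% higher, 16.8% lower), and it was higher for 1631 of the 3411 (47.8% of them, 37.3% of the PV list) and lower for 434 (12.7%). VIP cortex differed from CamK cortex in 35.4% (24.1% higher, 11.4% lower), and it was higher for 1661 (48.7% of them, 28.1% of the VIP list) and lower for 313 (9.18%). Of the 2549 features lower in SST than in Grik, 1493 were lower in PV (58.6% of them, 36.2% of the PV list) and 1089 in VIP (42.7% of them, 39% of the VIP list). The 3 cortical comparisons have the CamK cortex libraries in common, so they are not independent of one another. VIP titles carry a W, as do those of SST and Grik hippocampus, and CamK cortex titles do not, so in the VIP comparison population and title series cannot be told apart.

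Setting SST cortex against CamK hippocampus keeps the excitatory side in the hippocampus and still shares no library with the main comparison. Population and tissue change together in it and cannot be told apart. It called 25.3% of features, 15.0% higher and 10.3% lower. Of the features higher in SST than in Grik, 2033 were higher here (59.6% of them, 55.2% of the other list). Of the lower features, 1498 were lower here (58.8% and 59.2%). Opposite calls were few, at 67 (1.96%) and 95 (3.73%). Among features at 100 CPM or more the shared parts were 70.7% on the higher and 70.7% on the lower side, where 7.16% and 11.1% of all features of that level were called. The titles of the CamK hippocampus libraries carry a W that those of SST cortex lack, and what the W stands for is not stated.

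By level, the called features placed the populations in an order. The level of a library is given as the median, over a set of features, of its log2 CPM minus the mean of the 8 groups. For the set higher in SST it was 0.74 to 0.85 in the 4 SST hippocampus libraries and -1.28 to -1.17 in the Grik libraries, a separation that the choice of the set fixes. Libraries outside the choice were at 0.65 to 0.77 in SST cortex, 0.65 to 0.71 in VIP and 0.48 to 0.67 in PV, at -0.23 to 0.01 in Scnn, at -0.64 to -0.4 in CamK cortex and at -1.03 to -0.72 in CamK hippocampus. The 3 GABAergic cortical populations were on the SST side and overlapped with one another, while both CamK populations were on the Grik side. For the set lower in SST the order was PV cortex (-1.07 to -0.91), SST cortex (-0.74 to -0.64), VIP cortex (-0.35 to -0.05), Scnn (0.22 to 0.29), CamK cortex (0.55 to 0.6) and CamK hippocampus (0.65 to 0.74). Here PV was below SST hippocampus itself (-0.76 to -0.7), and VIP was nearer to the middle. Over all features tested the medians stayed between -0.09 and 0.12.

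**Figure D5:**
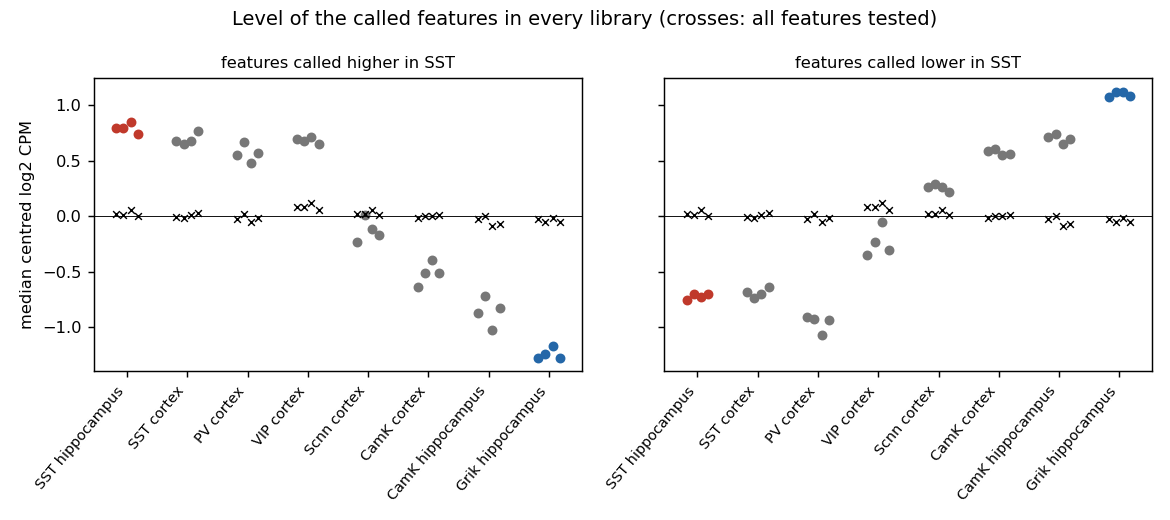
Median, over the 3411 features called higher (left) or the 2549 called lower (right) in SST than in Grik hippocampus, of log2 CPM minus the mean of the 8 groups, with 1 point per library and crosses for all features tested. SST hippocampus is red and Grik hippocampus blue. Cortical SST, PV and VIP libraries lie on the side of SST in both panels, and CamK libraries on the side of Grik.

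Neither set was a set of features specific to 1 population. Among the 3411 higher features the highest of the 8 group means fell in SST hippocampus for 592 (17.4%), in SST cortex for 541 (15.9%), in PV cortex for 875 (25.7%) and in VIP cortex for 982 (28.8%). The lowest mean fell in Grik for 1553 (45.5%) and in CamK hippocampus for 765 (22.4%). Among the 2549 lower features the highest mean fell in Grik for 1172 (46%), in CamK cortex for 426 (16.7%) and in CamK hippocampus for 394 (15.5%). The lowest mean fell in PV cortex for 983 (38.6%) and in SST hippocampus for 570 (22.4%). The shares of Grik and SST hippocampus are partly fixed, since the sets were chosen by the difference between these populations. The same shares over all features tested were not computed. Those of the other groups therefore describe the sets without a background and are not a trait of the called features. CamK hippocampus was closer to Grik than to SST for 2545 of the higher features (74.6%) and for 1813 of the lower ones (71.1%). For the other part it was closer to SST, although it is an excitatory population of the same tissue as Grik.

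The difference between SST and the excitatory population was itself not the same in both tissues. A test of SST minus Grik in the hippocampus against SST minus CamK in the cortex, in the same edgeR fit, called 3386 features (13.8%), 1941 with a larger value in the hippocampus (7.90%) and 1445 with a smaller one (5.88%). Tissue and excitatory population change together in this test and cannot be told apart. Titles of the hippocampal libraries also carry a W that the cortical SST and CamK titles lack. Among the 1941 features the median differences were 1.33 in the hippocampus and -0.98 in the cortex, and 1026 (52.9%) had fitted differences of opposite sign. Among the 1445 the medians were -0.99 and 1.39, and 779 (53.9%) had opposite signs. Both lists were chosen by the gap between these differences, which in itself sets the medians apart and favours opposite signs. The share of opposite signs over all features tested was not computed. GSMG0025316 and GSMG0028346 had the largest positive values of this test, which include their 0 counts in Grik. In the cortex GSMG0025316 was lower in SST than in CamK (log2 difference -2.46, SE 0.36, edgeR adjusted p = 1.13e-06), which adds to its value. GSMG0028346 was higher in SST there (3.46, SE 0.35, adjusted p = 1.68e-09), which takes away from its value.

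GSMG0038910 and GSMG0003666 had the largest negative values. GSMG0038910 was at 283, 295, 300.3 and 307.5 CPM in Grik replicates 3, 4, 5 and 6 and at 25.9, 27.6, 33.4 and 44.6 CPM in SST replicates 1, 2, 3 and 5, so Grik was higher without overlap. In the cortex the order was the reverse, with 125 ± 14.7 CPM in SST and 5.62 ± 1.97 CPM in CamK (n = 4 each). The log2 difference of differences was -7.65 (SE 0.39, edgeR adjusted p = 1.99e-14). It ranked 679 by level in Grik and was higher still in VIP cortex, at 795 ± 80.4 CPM.

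GSMG0003666 was at 1.98, 4.21, 2.15 and 6.58 CPM in Grik replicates 3, 4, 5 and 6 and at 0.476, 0.878, 0.867 and 0.961 CPM in SST replicates 1, 2, 3 and 5. SST cortex had 21.2 ± 4.22 CPM and CamK cortex 0.763 ± 0.426 CPM (n = 4 each), and the difference of differences was -7.05 (SE 0.56, edgeR adjusted p = 2.08e-10). VIP cortex held the highest level, 638 ± 84.3 CPM. The difference of differences was -6.36 with a replicate block, which takes up Grik replicate 6, and -6.61 without that library. For both features VIP was highest, cortical SST was above hippocampal SST, and Grik was above hippocampal SST. Hippocampal SST was not the lowest group for either. GSMG0038910 was lower in CamK hippocampus (11.2 CPM), Scnn (7.05 CPM), CamK cortex and PV (1.44 CPM). GSMG0003666 was at 0.261 CPM in CamK hippocampus, 0.495 CPM in PV and 1.16 CPM in Scnn.

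Feature length is given in the table without a unit. The median was 1818 for features higher in SST, 1689 for features lower in SST and 1597 for those not called. Divided into 3 equal groups by length, 21.5% of the shortest, 24.8% of the middle and 26.5% of the longest features were called. The rise lay on the SST side, from 11.4% over 14.4% to 15.8% higher, while 10.1%, 10.4% and 10.6% were lower. Median level fell over the same 3 groups, from 5.27 over 2.46 to 1.12 CPM, and its part in the rise was not tested.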

How the data were processed

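The authors deposited 1 table of expected counts for 56459 features, estimates with decimals. Of the values above 0, 20.1% were whole within 1e-06. Per the submitters' processing notes FastQC, Picard, SAMtools and featureCounts were used with build GRCm38. Aligner, annotation and use of strand: not given in the sources used here, so overlapping, antisense and near-identical features are uncertain. Per the labels' protocols, libraries were made from polyadenylated RNA with a stranded kit. A further 12 columns of per-sample values match no sample and were not used, nor was a column of codes whose meaning is not stated.

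Counts were rounded and fitted with edgeR 4.0.16 (R 4.3.3) to all 32 libraries, with 1 coefficient per group, features kept by filterByExpr (24555), TMM scaling, robust quasi-likelihood F tests, and p-values adjusted by Benjamini-Hochberg over all features tested. Calls needed an adjusted p under 0.05 and 2-fold. SE is the log2 difference over the square root of F. Log2 CPM used a prior count of 2. Features printed by identifier are those with the 2 largest differences each way among called features with at least 5 CPM in the higher population and, for the main comparison, no overlap. The comparison and its lists were chosen with earlier results of these data known. Planned lists of marker, channel, receptor, adhesion and splicing genes could not be tested without gene names.

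Counts were simulated for SST against Grik hippocampus (23574 features). The adjusted p was passed by 37 of 67 features set to a 1.5-fold difference and by 58 of 67 at 2-fold. It was passed by 65 of 66 at 4-fold and by 3 of 23374 left equal. With the fold threshold as well, 0 of 67 were called at 1.5-fold and 30 of 67 at 2-fold. At 4-fold 65 of 66 were called, as was 1 of the 23374. The features set to differ were drawn from those with a mean above 1 CPM over both populations. Counts were drawn from the kind of model that edgeR fits, with its own estimate of each feature's spread, so the rates are a best case. These rates were not divided by level. They give no recovery rate for the 1730 higher and 793 lower calls with a mean under 1 CPM. Alternatives were DESeq2 1.42.0, other scalings and filters, no fold threshold, a replicate block, fits of only the groups compared and leaving out each library.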

Additional observations from a re-analysis of the deposited data

Results flagged for a closer look

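Total counts of SST hippocampus replicate 1, 186505391, lay far above the other 3 SST libraries. The share of counts in the 100 most abundant features was low in SST replicate 3, at 21.5%, against 23.4% to 23.7% in the other 3. GSMG0001554 was at 27.9 CPM in Grik replicate 3 and at 22.8 to 23.3 CPM in the other 3 Grik libraries. These 3 values passed Dixon's test for an extreme value among 4 libraries, out of 18 groups of values examined, and chance flags about 1 in 20 groups.

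The SST minus Grik difference in the hippocampus differed from the SST minus CamK difference in the cortex for 3386 features. The log2 difference of differences was 14.96 for GSMG0025316 and 9.49 for GSMG0028346. Both values include 0 counts in Grik and are no measure of size. It was -7.65 for GSMG0038910 and -7.05 for GSMG0003666.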

How the results depend on the processing

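The number of features that differed between SST and Grik hippocampus was 5652 to 5873 when each of the 8 libraries was left out in turn, 6189 with DESeq2, 5956 with the size factors named RLE, 6115 with total counts (chosen after seeing the data), 5776 with no filter on low counts, 4480 at 1 CPM in at least 4 libraries and 5439 when only the 8 libraries were fitted. Of the 5960 calls, 5841 were shared with DESeq2, 5540 with total counts, 5168 with the fit of only the 8 libraries and 4403 with the 1 CPM filter, which tests 16643 features. The share higher in SST stayed above an even split in each of these, at 56.5% to 57.8% without single libraries, 55.6% at 1 CPM in at least 4 libraries, 65.2% with total counts, 55.5% with only the 8 libraries and 58.6% with DESeq2. Without the fold threshold the share was 50.4%. That setting also raised the counts of calls, to 11615 for SST against Grik, 11810 for SST against CamK cortex, 14496 for PV against CamK cortex, 15351 for VIP against CamK cortex, 12223 for SST cortex against CamK hippocampus and 5994 for the difference of differences, with 3466 higher and 3675 lower features shared between SST against Grik and SST against CamK cortex. VIP against CamK cortex gave 5179 calls at 1 CPM in at least 4 libraries. The 7 features near absent in SST and present in Grik ranged from 7 to 12 without single libraries, with 12 without SST replicate 5. The 8 values of features printed by identifier kept their direction and call in all 160 recomputed values. These features were picked as the largest differences of the same data, so this says little about other calls. When only the 8 libraries were fitted, their edgeR adjusted p-values in the main comparison were larger. They were 6.95e-09 for GSMG0028346, 2.76e-08 for GSMG0025316, 5.9e-09 for GSMG0001554 and 1.14e-10 for GSMG0003756. SST and Grik share only the numbers 3 and 5. The deviations of same-numbered libraries had correlations of 0.07 and -0.01, against -0.06 to 0.03 for libraries with different numbers. The labels do not say whether a number marks a shared animal or batch, so whether these libraries are paired is not known. With a replicate block the count was 5197 and the share higher 54.8%. Depth limits calls for features with few counts. Of the 3411 features higher in SST, 1730 had a mean under 1 CPM over both populations, but the set was not divided by number of counts.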

Other observations

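Scnn cortex, an excitatory population in background knowledge, stood between the CamK and the interneuron populations in its median levels, while its shares of counts were widely spread for the first set. Features higher in SST than in Grik hippocampus took 11.3%, 21.3%, 8.93% and 13.7% of the counts in Scnn replicates 1 to 4, with replicate 2 the highest. They took 5.47% ± 0.0518 (SD, n = 4 each) in CamK cortex, 4.05% ± 0.147 in CamK hippocampus, 13.2% ± 0.748 in SST cortex, 13.4% ± 0.357 in PV and 15.4% ± 1.32 in VIP. Features lower in SST took 13.7% ± 0.898 in Scnn, 15.6% ± 0.143 in CamK cortex and 17.1% ± 0.251 in CamK hippocampus, against 6.39% ± 0.113 in SST cortex, 5.55% ± 0.149 in PV and 8.53% ± 0.542 in VIP. For the higher set Scnn was closer to Grik than to SST hippocampus in 1584 of 3411 features (46.4%), and for the lower set in 1315 of 2549 (51.6%).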
